A study of Mus musculus with 18 samples.

Results

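A set of 10 genes that encode readers, writers, erasers and remodellers of histone marks was followed in round spermatids (RS) of WT, KO and KI mice. These are the histone acetyltransferase gene Kat8, the acetyltransferase gene Naa60, the remodeller genes Ep400 and Chd5, the acetyl-lysine reader gene Brdt, the deacetylase gene Sirt1, the demethylase genes Kdm3a and Kdm4a, the methyl-histone reader gene Pygo2 and the methyl-DNA reader gene Mbd2. They were taken by name as chromatin readers and modifiers of histone replacement, which is 10 of the 54232 genes of the count table, and all 10 were among the 21058 genes that passed the filter on low counts. RS were isolated from testes of mice of 75 to 85 days of age, with 6 libraries per genotype. The KO mice lack GRTH (encoded by Ddx25), a testicular RNA helicase of germ cells and Leydig cells. The KI mice carry a human GRTH gene with a missense mutation and lack the phosphorylated form of the protein. No Cre or cell-type promoter is named in the sources used here for either line. Nothing in the labels ties libraries to separate mice, so p-values measure the spread between these libraries, which may in part be technical.

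In spermatids most histones are removed from DNA and replaced first by transition proteins and then by protamines, which pack the sperm nucleus. Removal is preceded by a wave of histone H4 acetylation, which opens the chromatin and is read by bromodomain proteins. Remodellers, demethylases and readers of methylated histones and DNA act around the same time, and several of them are also needed for transcription of the transition protein and protamine genes.

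Each library held between 18766971 and 26776555 counts. Ddx25, the targeted gene, was at 538 to 607 CPM (counts relative to library size, scaled by TMM factors) in WT, at 47.7 to 90.9 CPM in KO, and at 0.0456 to 0.519 CPM in 5 KI libraries. The library labelled KI 4 had 56.9 CPM of Ddx25, inside the KO range, which goes against its label. The Ddx25 row counts the mouse gene. The library labelled KI 4 also resembled KO 2 more than any other pair of libraries resembled each other. Their difference over genes was 1.59 times counting noise, against 2.05 for the next closest pair, KO 4 and KO 5. Results on KI are therefore given with and without the library labelled KI 4 where it changed them. Every WT library had a close partner: 1 with 2 (2.14 times counting noise), 3 with 4 (2.86), 5 with 6 (3.24). Among KI libraries, 1 was close to 2 (2.61) and 3 to 5 (2.73). Outside these pairs the lowest value was 4.73, for KO 4 against KI 6. Every p-value and SD here treats the 6 libraries of a genotype as independent. Whether close partners came from separate mice was not tested. The summed level of 10 elongating spermatid markers (Prm1, Tnp1 and others, among them genes the study named from these libraries) was 15740 to 21730 CPM in WT, 1840 to 4670 CPM in KO and 2454 to 3767 CPM in KI. The summed level of 8 round spermatid markers was 1277 to 1787 CPM in WT, 1018 to 1532 CPM in KO and 891 to 1412 CPM in KI, and round spermatid markers were thus present in every library. The 9 pachytene spermatocyte markers summed to 1702 to 2422 CPM in WT, 1813 to 2988 CPM in KO and 1810 to 2224 CPM in KI. None of the elongating, round spermatid or Leydig markers was at or below 3 counts in every library of a genotype. All 6 Leydig cell markers were higher in KO and in KI, with a sum of 9.76 to 19.7 CPM in WT, 29.9 to 52.0 CPM in KO and 13.4 to 66.1 CPM in KI.

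Naa60 and Mbd2 stood apart from the other 8 regulators. Both were lower in every KO and every KI library than in any WT library, and their fitted differences passed a test against 1 log2 unit. The other calls were smaller, with Pygo2 and Kdm3a higher in KO and KI, Chd5 lower in KI, and Kdm4a lower in KO and higher in KI. Brdt, Ep400, Kat8 and Sirt1 did not pass the test in either genotype. By edgeR's quasi-likelihood test at an adjusted p of 0.1, 2 of 10 regulators were higher in KO than in WT, beside 16.4% of all tested genes, and 3 were lower, beside 13.4%. In KI, 3 of 10 were higher, beside 16% of all genes, and 3 were lower, beside 15.4%. Against a change of 1 log2 unit (edgeR's glmTreat), 2 of 10 were lower in KO, beside 1.13% of all genes, and the same 2, Naa60 and Mbd2, in KI, beside 1.42%. The study named both genes from these libraries, so these counts are not independent evidence of their direction. By quantitative PCR on RS, the study listed Mbd2 among genes lower in KI and did not name it among those lower in KO. KO and KI were both compared with the same WT libraries. The median log2 fold change of the 10 genes was -0.06 in KO, beside 0.03 for all tested genes, and 0.07 in KI, beside 0.05. In these bulk libraries fewer cells of a type and less RNA per cell cannot be told apart.

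**Figure D1:**
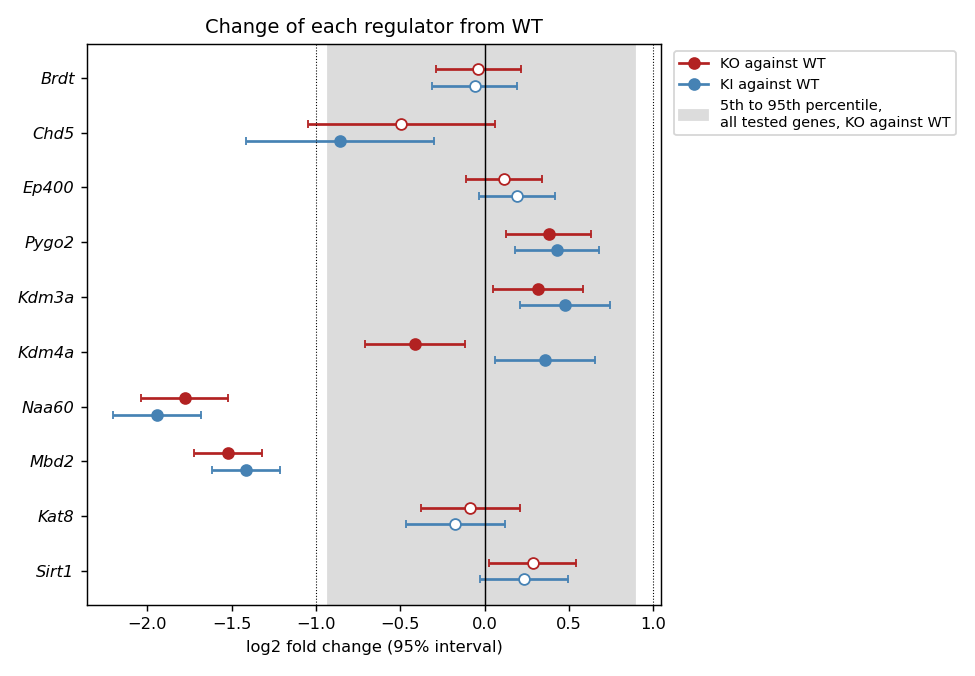
Log2 fold change of each of the 10 regulators (x axis) in KO (red) and KI (blue) against WT, with 95% intervals from edgeR's fit; filled points passed an adjusted p of 0.1, dotted lines mark 1 log2 unit in either direction, and the grey band spans the 5th to 95th percentile of all tested genes in KO against WT (-0.93 to 0.89). Naa60 and Mbd2 lie left of -1 in both genotypes, and the Kdm4a points lie on opposite sides of 0.

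The sequence just before the transcription start is shown for Naa60, which fell the most, and for Kdm4a, the only regulator that differed between KO and KI. Both are the 250 bases upstream of the RefSeq start on GRCm38.p6, written 5′ to 3′ on the strand of the gene, with capitals where a motif matched on either strand. The motifs searched were the CRE half-site TGACG, the full CRE TGACGTCA (which contains the half-site), the GC box GGGCGG, the CCAAT box CCAAT and the TATA box TATAAA. The Naa60 window is chr16:3884369-3884618 on the plus strand and the Kdm4a window is chr4:118180044-118180293 on the minus strand.
Naa60: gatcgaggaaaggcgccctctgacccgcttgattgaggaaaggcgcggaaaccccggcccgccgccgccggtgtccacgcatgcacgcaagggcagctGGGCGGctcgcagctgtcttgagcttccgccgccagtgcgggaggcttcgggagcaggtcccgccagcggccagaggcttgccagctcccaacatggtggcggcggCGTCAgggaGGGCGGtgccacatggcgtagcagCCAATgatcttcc
Kdm4a: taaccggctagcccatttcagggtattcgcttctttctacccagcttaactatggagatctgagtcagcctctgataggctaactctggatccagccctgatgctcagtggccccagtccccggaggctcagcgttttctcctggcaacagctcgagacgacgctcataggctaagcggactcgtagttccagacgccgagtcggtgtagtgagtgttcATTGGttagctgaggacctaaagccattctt
The Naa60 window held 1 CRE half-site, 2 GC boxes and 1 CCAAT box, with 69.2% G and C, a higher share than in 89.6% of all promoters of the table. The RefSeq start lies 12244 bases inside the Naa60 locus of GENCODE, in which other transcripts start upstream of it. Gm26675, a lincRNA gene on the same strand, and Zfp597, a protein-coding gene on the opposite strand, also overlap that locus. The Kdm4a window held 1 CCAAT box and 53.6% G and C, near the median of 52.4% over all promoters. Windows were found for 9 of the 10 genes. The CRE half-site was in 5 of the 9, those of Naa60, Kat8, Chd5, Pygo2 and Sirt1, and in 17.8% of all 32841 promoters. The GC box was in 6 of 9, beside 32.7% of all promoters, and the CCAAT box in 5 of 9, beside 33.9%. The full CRE and the TATA box were in 0 of 9, beside 1.55% and 12.4%. The 9 windows ran from 51.2% (Kat8) to 79.2% (Sirt1) G and C, beside the median of 52.4%, and the motif shares were not adjusted for it. The Sirt1 window lies 42669 bases from the start of the gene in GENCODE. These matches are letters in a window and were not tested as sites. The half-site was present both before Naa60, which fell, and before Pygo2, which rose.

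In WT, levels of the 10 genes per kb of exon spanned from 78.7 ± 5.08 CPM per kb for Brdt to 3.12 ± 0.385 CPM per kb for Pygo2 (SD, n = 6). Ep400 (53.7 ± 1.87), Chd5 (49.1 ± 18.5), Kdm3a (43.1 ± 6.06) and Kat8 (40.5 ± 2.59) followed Brdt, and the libraries of each overlapped those of the next. Mbd2 came next at 25.7 ± 2.31 CPM per kb, and Naa60 (9.09 ± 1.59), Sirt1 (5.90 ± 1.08) and Kdm4a (4.39 ± 0.262) were lower. From Kat8 downwards no 2 neighbours in this order overlapped in WT. With the length of the longest transcript in place of all exons, places 2 to 5 became Kat8, Kdm3a, Ep400 and Chd5, and the other places did not change.

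**Figure D2:**
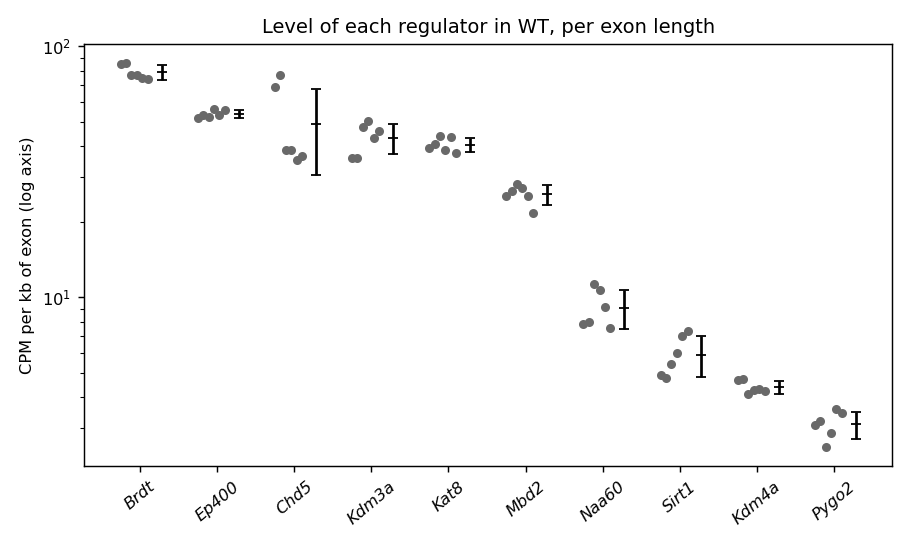
Level of each regulator in the 6 WT libraries in CPM per kb of exon (y axis, log scale), with mean and SD beside the points. Brdt is the highest at 78.7 CPM per kb and Pygo2 the lowest at 3.12 CPM per kb; the Chd5 points form 2 separate clusters.

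Of the 2 writers, Naa60 passed the test and Kat8 did not. Naa60 (ENSMUSG00000005982, chr16:3872375-3904780 on the plus strand of GRCm38) encodes an N-terminal acetyltransferase of the Golgi, for which acetylation of free histone H4 has also been described. Its level was 28.8 CPM in the lowest, 32.8 in the median and 43.1 in the highest WT library, 8.75, 9.93 and 11.6 CPM in KO, and 8.06, 8.77 and 10.2 CPM in KI. The highest KO and KI libraries were below the lowest WT library, and KO and KI overlapped. The log2 fold change was -1.78 (SE 0.124) in KO, with an adjusted p of 5.64e-10 by edgeR's quasi-likelihood test and 0.00019 against a change of 1 log2 unit, which is 0.292 of the WT level. In KI it was -1.94 (SE 0.125), with adjusted p of 1.2e-10 and 1.23e-05, or 0.260 of the WT level. Between KI and KO the difference was -0.17 on the log2 scale, with a 95% interval of -0.42 to 0.09 and an adjusted p of 0.963. Naa60 counts were between 171 and 842 per library.

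Part of the Naa60 locus is shared with other genes. Of its 3815 exon bases, 502 (13.2%) also belong to Gm20695 on the same strand, whose own row held 0 to 4 counts per library. On the opposite strand 1700037C18Rik overlaps 573 exon bases and averaged 36.3 ± 7.65 CPM over WT, 34.9 ± 9.36 over KO and 29.5 ± 2.31 over KI libraries (SD, n = 6). Zfp597, which overlaps 22 bases on that strand, was at 97.2 ± 27.4, 103 ± 15.1 and 96.5 ± 22.6 CPM. The deposited counts were made by strand. Of all tested genes, the 3 with the pattern over the 18 libraries most like that of Naa60, by root mean square distance of centred log2 CPM, were Isg20l2 (0.163), Glrx2 (0.181) and Herpud1 (0.184). Isg20l2, a nuclease gene, averaged 96.9 CPM over WT, 25.2 over KO and 21 over KI.

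Kat8 (ENSMUSG00000030801, chr7:127912516-127925837 on the plus strand) encodes the acetyltransferase of histone H4 in the MSL and NSL complexes. It was at 108, 115.5 and 126 CPM (lowest, median and highest) in WT, 79.97, 116 and 125 CPM in KO, and 72.9, 102 and 130.2 CPM in KI. All 3 genotypes overlapped, and KI spread the most, with a coefficient of variation of 22.3% beside 6.40% in WT. It changed by -0.08 on the log2 scale (SE 0.142, adjusted p = 0.741, edgeR) in KO, with a 95% interval of -0.38 to 0.21, and -0.17 (SE 0.142, adjusted p = 0.417) in KI, with an interval of -0.47 to 0.12.

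Brdt (ENSMUSG00000029279, chr5:107331159-107387058 on the plus strand) encodes the testis-specific bromodomain protein that binds acetylated histone H4 and is required for chromatin compaction in spermatids. Its levels were 379.7, 391 and 438 CPM in WT, 318, 392 and 501 CPM in KO, and 341, 382 and 424 CPM in KI. The groups overlapped widely, and the highest and lowest values of all were both in KO. Brdt changed by -0.04 on the log2 scale (SE 0.121, adjusted p = 0.882, edgeR; 95% interval -0.29 to 0.22) in KO and -0.06 (SE 0.121, adjusted p = 0.787; -0.31 to 0.19) in KI. These intervals do not reach a change of 1 log2 unit in either direction.

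Sirt1 (ENSMUSG00000020063, chr10:63319005-63381704 on the minus strand), a deacetylase gene, was at 25.3, 30.4 and 39.0 CPM in WT, 32.5, 38.0 and 44.8 CPM in KO, and 32.1, 37.3 and 41.3 CPM in KI. WT overlapped with both, since WT 5 and WT 6 lay among the KO and KI libraries. On the log2 scale Sirt1 differed from WT by 0.29 (SE 0.124, adjusted p = 0.103, edgeR) in KO and 0.23 (SE 0.124, adjusted p = 0.187) in KI, so neither passed the threshold. The KO value passed in 5 of 26 alternatives, namely with at least 10 counts in every library and without WT 5, WT 6, KO 1 or KO 4, with an adjusted p of 0.05 at the lowest. The KI value passed in 1 of 26, without WT 6 (adjusted p = 0.0599).

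Of the remodellers, Ep400 (ENSMUSG00000029505, chr5:110664373-110770717 on the minus strand) encodes the motor subunit of the TIP60 complex, which exchanges histone variants and acetylates histone H4. It was at 721, 743 and 783 CPM in WT, 766, 796 and 911 CPM in KO, and 789, 858 and 909.5 CPM in KI. Every KI library was above every WT library, while KO overlapped with both. The difference was small beside the fitted spread, with a log2 fold change of 0.12 (SE 0.108, adjusted p = 0.503, edgeR) in KO and 0.19 (SE 0.108, adjusted p = 0.214) in KI. With DESeq2 in place of edgeR the KI value passed, with an adjusted p of 0.0184, the lowest over its alternatives. Of its exon bases 119 (0.852%) are shared with the snoRNA gene Gm26079 on the same strand.

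Chd5 (ENSMUSG00000005045, chr4:152338651-152390194 on the plus strand) encodes a chromodomain remodeller of NuRD-type complexes that is needed for the exchange of histones for protamines in the mouse. It had the widest relative spread of the 10 genes in WT and in KO. WT 1 and WT 2 were at 657 and 735 CPM and the other 4 WT libraries at 338 to 371 CPM. KO 1 was at 708 CPM and the other 5 KO libraries at 188 to 334 CPM, and KI ran from 214 over a median of 266 to 298 CPM. KI lay below every WT library, while KO overlapped with WT through KO 1, and WT 1 and WT 2 resembled each other closely, with a difference over genes of 2.14 times counting noise. The log2 fold change in KI was -0.86 (SE 0.269, adjusted p = 0.0218, edgeR), and -0.81 (adjusted p = 0.0467) without the library labelled KI 4. The KI call was lost when 1 library of each closely agreeing pair of a genotype, WT 2 among them, and the library labelled KI 4 were left out (adjusted p = 0.306). In KO it was -0.49 (SE 0.268, adjusted p = 0.202), and -0.86 without KO 1, which passed with an adjusted p of 0.00525, the lowest over its alternatives. Between KI and KO the difference was -0.36 (adjusted p = 0.963), with a 95% interval of -0.92 to 0.19.

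**Figure D3:**
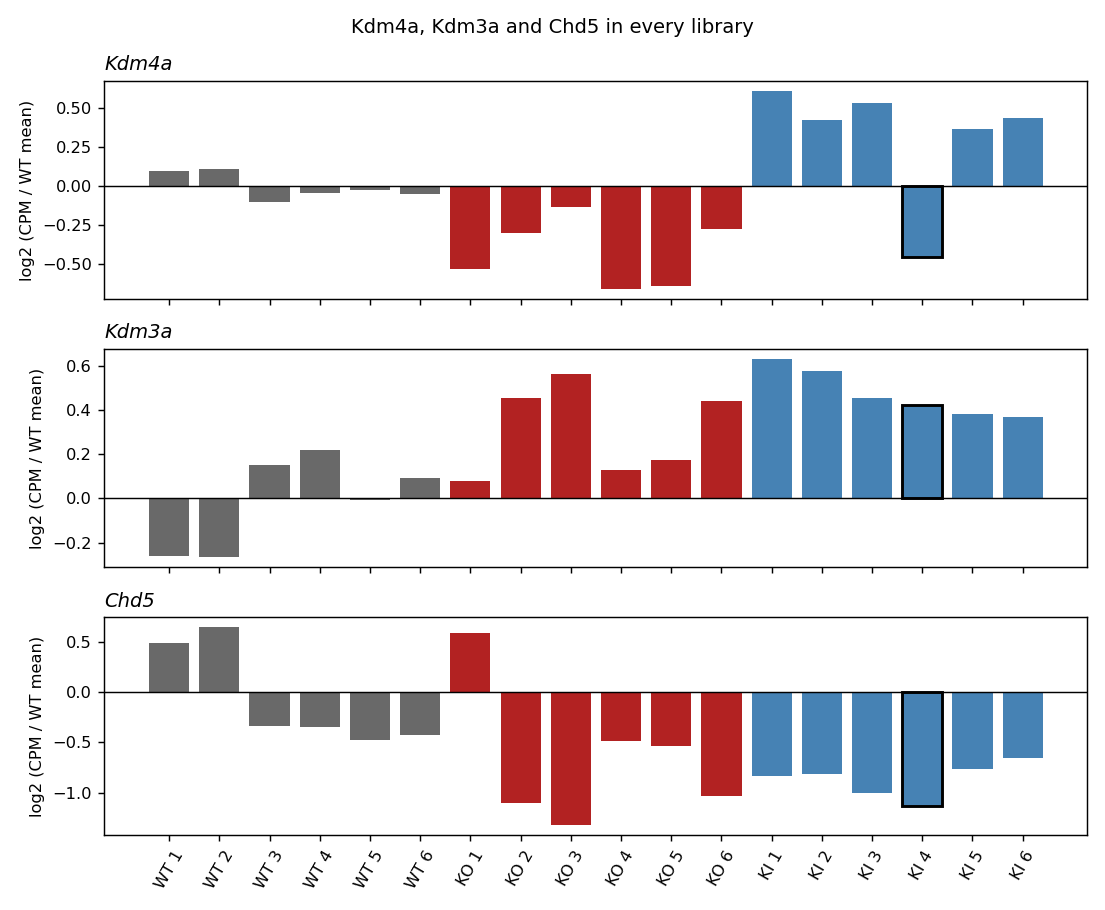
Kdm4a, Kdm3a and Chd5 in each of the 18 libraries as log2 of CPM over the WT mean (y axis), with WT in grey, KO in red and KI in blue, and the library labelled KI 4 outlined in black. Kdm4a is below 0 in all 6 KO libraries and above 0 in 5 KI libraries but not in the outlined one; Chd5 is above 0 in WT 1, WT 2 and KO 1.

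Both demethylase genes changed, but not in the same way. Kdm3a (ENSMUSG00000053470, chr6:71588972-71632990 on the minus strand) encodes a demethylase of histone H3 that is needed for expression of Tnp1 and Prm1. It was at 295, 365 and 413 CPM in WT, 374, 441 and 523 CPM in KO, and 457, 481 and 549 CPM in KI. All KI libraries lay above all WT libraries, and KO lay between with overlap on both sides. Kdm3a was higher by 0.32 on the log2 scale (SE 0.129, adjusted p = 0.0788, edgeR) in KO and 0.48 (SE 0.129, adjusted p = 0.00849) in KI. The KO call was lost in 11 of 26 alternatives, among them DESeq2 size factors and leaving out any 1 of WT 1, WT 2, WT 5, KO 2, KO 3 or KO 6, with an adjusted p of up to 0.321, and the KI call in 1, with 1 library of each closely agreeing pair (adjusted p = 0.125). The lowest libraries of WT and of KO were WT 1, WT 2 and KO 1, at 296, 295 and 374 CPM, which were also the highest for Chd5, a match seen after the values were known.

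Kdm4a (ENSMUSG00000033326, chr4:118136957-118180043 on the minus strand) encodes a demethylase of trimethylated histone H3. WT levels were 23.7, 24.8 and 27.4 CPM and KO levels 16.1, 19.1 and 23.1 CPM, so that all KO libraries lay below all WT libraries. In KI, 5 libraries were at 32.7 to 38.8 CPM, above all WT and KO libraries, and the library labelled KI 4 was at 18.5 CPM, inside the KO range. On the log2 scale Kdm4a changed by -0.41 (SE 0.143, adjusted p = 0.0406, edgeR) in KO and 0.36 (SE 0.143, adjusted p = 0.0716) in KI. KI was higher than KO by 0.77 on the log2 scale (SE 0.144, adjusted p = 0.0445), or 1.70-fold, which made Kdm4a 1 of 18 genes that passed this comparison, 0.0855% of those tested. Without the library labelled KI 4 the values were -0.41 (SE 0.108, adjusted p = 0.0075) in KO, 0.48 (SE 0.112, adjusted p = 0.00323) in KI and 0.89 (SE 0.112, adjusted p = 0.000113) between KI and KO. More genes then told KI from KO, so that Kdm4a was less of an exception. Of 21257 genes in that fit, 58 passed with a rise and 50 with a fall, and 14 passed 1 log2 unit. These numbers were 13, 5 and 1 with all 18 libraries. With that library in, the call between KI and KO was lost when only KO and KI were fitted, and when any 1 of KO 1, KO 4, KO 5, KI 1, KI 2 or KI 3 was left out, with an adjusted p of up to 0.171 and a difference of 0.71 to 0.97 over 26 alternatives. The call of KI against WT was lost in 8 of them, among them without WT 4, WT 5, KI 1, KI 2, KI 3 or KI 6, and that of KO against WT in 1, when 1 library of each closely agreeing pair of a genotype and the library labelled KI 4 were left out (adjusted p = 0.179). Kdm4a counts were between 323 and 878 per library.

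**Figure D4:**
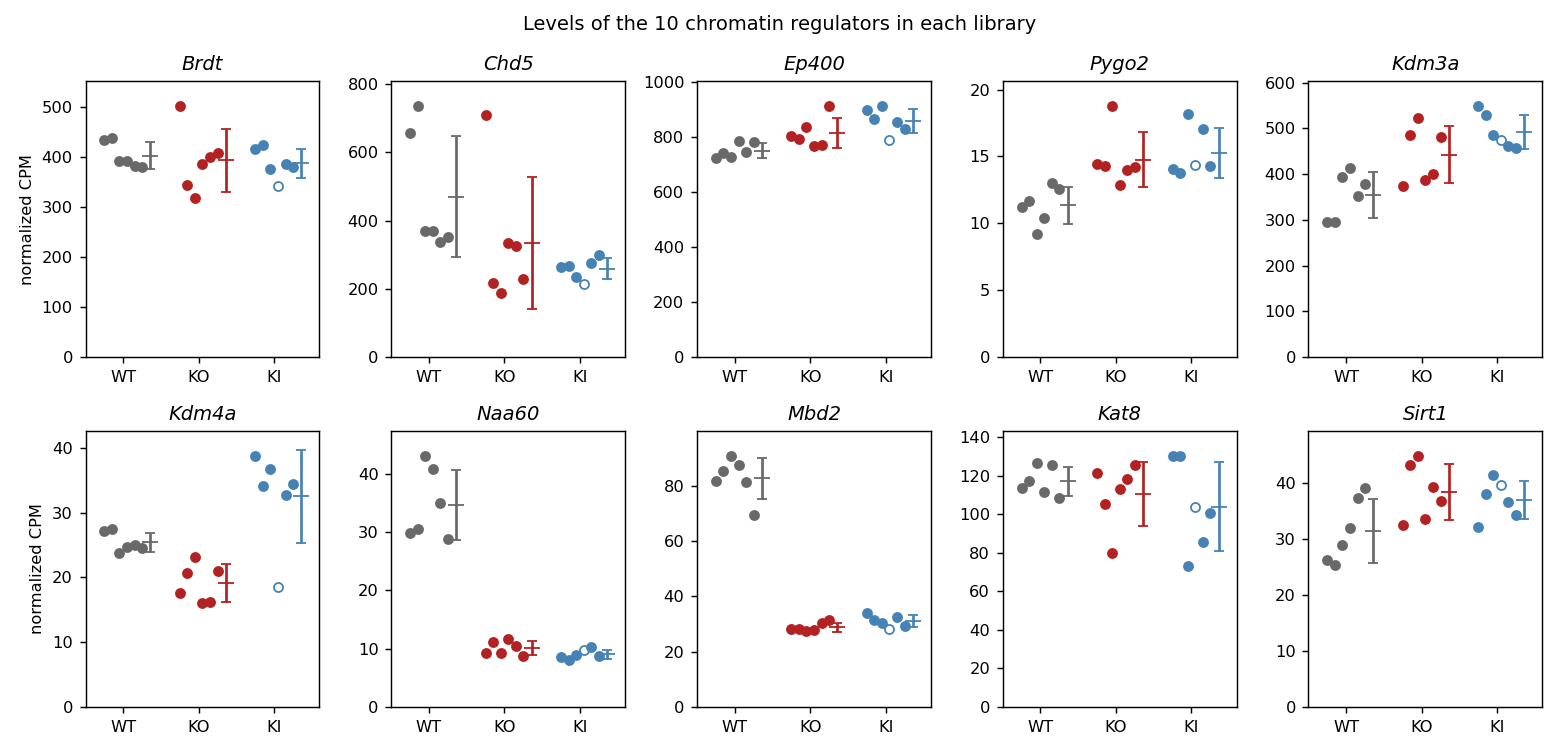
Normalized CPM of each regulator (y axis, from 0) in the 6 libraries of WT (grey), KO (red) and KI (blue), with mean and SD beside the points and the library labelled KI 4 as an open circle. Naa60 and Mbd2 in KO and KI lie below every WT library, and the open circle of Kdm4a lies at 18.5 CPM, among the KO libraries.

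The methyl mark readers went in opposite directions. Pygo2 (ENSMUSG00000047824, chr3:89430214-89435128 on the plus strand) encodes a PHD finger protein that binds methylated histone H3 and is required in spermatids for histone H3 acetylation. It was at 9.19, 11.4 and 12.98 CPM in WT, 12.9, 14.3 and 18.8 CPM in KO, and 13.7, 14.3 and 18.2 CPM in KI. KI lay above all WT libraries, and in KO only the lowest library lay below the highest WT library. On the log2 scale Pygo2 was higher by 0.38 (SE 0.121, adjusted p = 0.0246, edgeR) in KO and 0.43 (adjusted p = 0.0108) in KI. The KO call was lost with no filter on low counts, without WT 3 and with 1 library of each closely agreeing pair, with an adjusted p of up to 0.203, and the KI call in the last of these (adjusted p = 0.133).

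Mbd2 (ENSMUSG00000024513) encodes a protein that binds methylated CpG and recruits the NuRD complex. It was at 69.4, 83.4 and 90.8 CPM in WT, 27.5, 28.1 and 31.4 CPM in KO, and 28.3, 30.8 and 33.9 CPM in KI. All 12 KO and KI libraries lay below all WT libraries, and KO and KI overlapped. The log2 fold change was -1.52 (SE 0.097) in KO, with an adjusted p of 1.81e-10 by edgeR's quasi-likelihood test and 0.00124 against 1 log2 unit, or 0.349 of the WT level. In KI it was -1.42 (SE 0.097), with adjusted p of 3.19e-10 and 0.00987, or 0.375 of the WT level, and -1.39 (adjusted p against 1 log2 unit 0.0298) without the library labelled KI 4. In KI the call against 1 log2 unit was lost with no filter on low counts (adjusted p = 0.278), without WT 3 (0.142) and with 1 library of each closely agreeing pair (0.873), while it held for Naa60 in each of these. Between KI and KO it was 0.10, with a 95% interval of -0.10 to 0.30. The genes most like Mbd2 in pattern were Gm4419 (0.151), Rnf44 (0.151) and Aktip (0.161), and Rnf44, a ubiquitin ligase gene, averaged 145 CPM over WT, 61.5 over KO and 60.6 over KI. The elongating spermatid markers moved in the same libraries and direction as Naa60 and Mbd2. The Leydig cell markers were called higher in KO and KI, but not every library showed it. Their sums in KI 3, KI 5 and KI 6 (16.6, 13.4 and 17.7 CPM) lay within the WT range of 9.76 to 19.7 CPM. The part of either marker set in these differences was not tested.

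Counted without a model, 3 regulators (Naa60, Mbd2 and Kdm4a) did not overlap between KO and WT, beside 13.1% of all tested genes. Between KI and WT 6 regulators did not overlap (Naa60, Mbd2, Chd5, Ep400, Kdm3a and Pygo2), beside 13.9%. Between KI and KO 0 of 10 were apart, beside 0.223% of all genes, and Kdm4a missed only through the library labelled KI 4.

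Around these 10, 141 other chromatin genes in 10 lists were examined, of which 139 were tested. In KO 33 were higher (23.7%) and 10 lower (7.19%), and in KI 37 were higher (26.6%) and 12 lower (8.63%), beside the shares of all genes given above. With no filter on low counts 21 were higher in KO. In that setting 2652 of 43982 tested genes were higher in KO, beside 3444 of 21058 with the filter. With 1 library of each closely agreeing pair, 16 were higher in KO, 16 higher in KI and 5 lower in KI. Calls over all genes also fell there, to 1749, 1385 and 1635, from 3444, 3377 and 3246. The median log2 fold change of the 139 was 0.15 in KO and 0.16 in KI. Between KI and KO 0 of them passed edgeR's test or DESeq2's, and 2 had an unadjusted p under 0.05 in edgeR's test. Against a change of 1 log2 unit Tssk6 was the only one that passed, with log2 fold changes of -2.92 in KO and -3.12 in KI. Tssk6 encodes a spermatid kinase needed for histone removal, and the study named it from these libraries.

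Of the 10 lists, that of the histone demethylases had the most genes that were higher, but the lists differ in size. By share, 44.4% of demethylases and 50% of lysine acetyltransferases were higher in each genotype. Of the 4 PYGO and BCL9 genes, 50% were higher in KO and 25% in KI. Among all tested genes these shares were 16.4% in KO and 16% in KI. Of 18 other histone demethylases, 8 were higher in KO and 1 was lower, and again 8 and 1 in KI. Phf8 had the largest rise, from 22.9 ± 4.18 CPM in WT to 56.2 ± 13.6 in KO (SD, n = 6; log2 fold change 1.29, adjusted p = 2.68e-06), and Kdm4b, a paralog of Kdm4a, changed by -0.39 (adjusted p = 0.0272). Of 10 lysine acetyltransferases 5 were higher and 1 lower in each genotype, with Kat7, which acetylates histones H3 and H4, higher by 0.78 in KO (adjusted p = 0.000961) and Hat1, which acetylates newly made histone H4, with a log2 fold change of -0.84 (adjusted p = 0.000569). Of 11 N-terminal acetyltransferase genes tested, 2 were higher and 3 lower in KO, with Naa11 at 0.77 and Naa80 at -0.49, and none of the 11 passed a change of 1 log2 unit. Of 16 sirtuin and histone deacetylase genes 1 was higher (Hdac4, 0.69) and 1 lower (Hdac9, -0.52) in KO, and 2 and 2 in KI.

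Of 19 genes of the NuRD complex and the MBD and CHD families, 6 were higher and 0 lower in KO, and 6 and 1 in KI. Of 17 genes of the TIP60 complex, in which Ep400 works, 0 were higher and 1 lower in KO (Actl6a, -0.58), and 3 and 1 in KI. Of 11 genes of the MSL and NSL complexes, in which Kat8 works, 2 were higher in KO (Ogt the most, at 0.46) and 1 in KI. Of 16 bromodomain and YEATS reader genes 4 were higher in KO (Brwd3 the most, at 1.12) and 5 in KI, with 0 lower in both. Of 4 PYGO and BCL9 partner genes 2 were higher in KO (Bcl9l the most, at 0.80) and 1 in KI. Of 17 other factors of histone removal 3 were higher and 3 lower in each genotype, with Parp1 at 0.49 and Tssk6 as above.

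**Figure D5:**
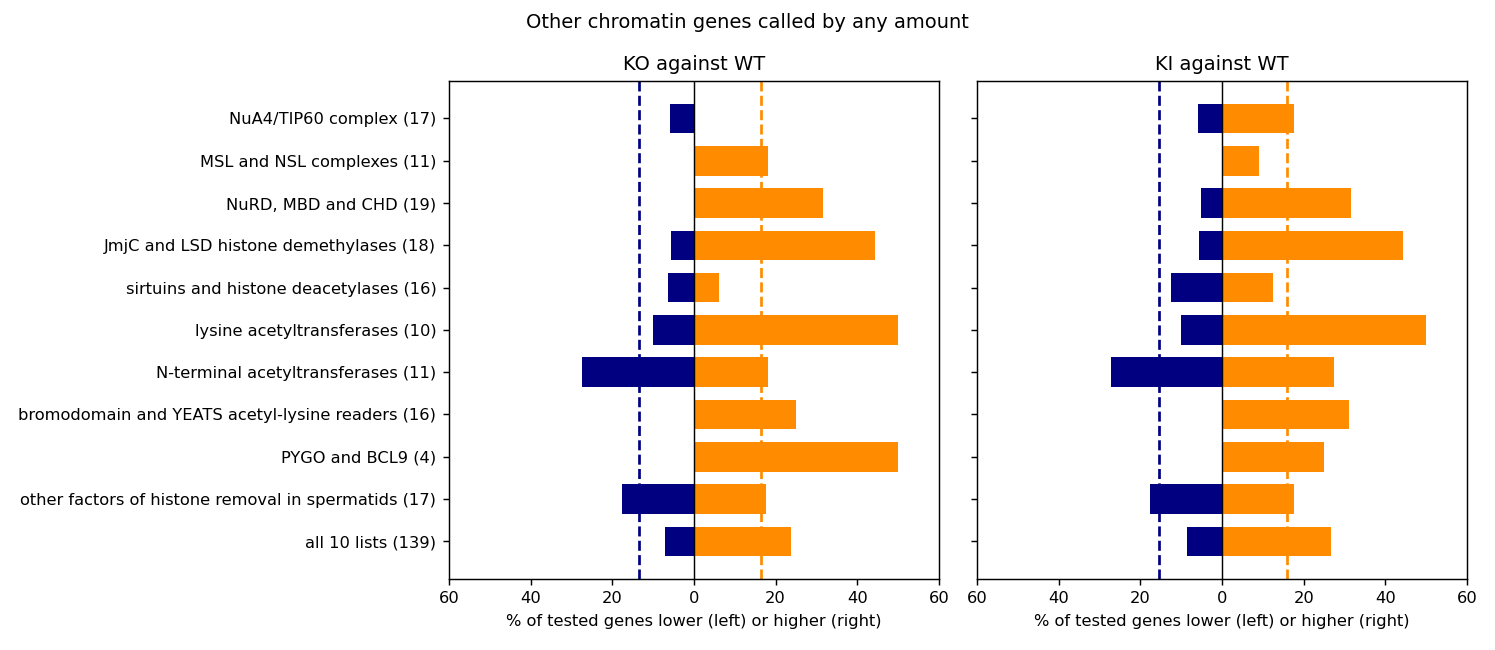
Share of the tested genes of each list (number tested in parentheses) that were lower (blue, left) or higher (orange, right) than WT in KO and KI at an adjusted p of 0.1; dashed lines mark the shares among all tested genes (16.4% higher and 13.4% lower in KO, 16% and 15.4% in KI). The demethylases reach 44.4% higher and the lysine acetyltransferases 50% in both genotypes, and the PYGO and BCL9 genes 50% in KO.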

How the data were processed

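The authors isolated RS by enzymatic digestion and sedimentation on an albumin gradient, made libraries from total RNA with the Takara Pico kit without polyA selection, and, per the labels and the study's methods, trimmed reads with cutadapt 3.4, aligned them with STAR 2.7.8a to the mouse genome (GRCm38, mm10) and counted them by strand per gene with featureCounts (Subread 2.0.1). The deposited values are raw counts per gene with the exon length in bases of each gene, and 0 columns were left without a library. Duplicate reads were marked and not removed. Depth was 18766971 to 26776555 counts per library, and at that depth 3 counts corresponded to 0.112 to 0.160 CPM.

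Genes were filtered by filterByExpr and fitted in 1 model of genotype over all 18 libraries with edgeR 4.0.16 (R 4.3.3; TMM factors, robust quasi-likelihood test). Changes of any amount were tested by glmQLFTest and changes past 1 log2 unit by glmTreat, with Benjamini-Hochberg adjustment over 21058 genes and a threshold of 0.1. DESeq2 1.42.0, the tool of the study, was an alternative, and the others were its size factors, other filters, fits of the compared genotypes alone, the replicate number as a block, a threshold of 0.05, leaving out each library, and leaving out 1 library of each closely agreeing pair and the library labelled KI 4. The difference between libraries in units of counting noise is the median squared difference over its Poisson expectation, taken over genes whose counts in both libraries add up to 20 or more.

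Named were all 10 regulators, Ddx25, in each list of other chromatin genes the largest called rise and fall in KO, those past 1 log2 unit, and the 3 genes nearest in pattern to each regulator past 1 log2 unit; 1 gene that this rule names is not reported here. The members and the lists were chosen with earlier results of these data known. Gene symbols were found for 54079 of 54232 genes, positions are from GENCODE M21 on GRCm38, which may differ from the annotation counted, and promoter windows and motif counts are from RefSeq on GRCm38.p6. Amino acid sequences were not used here.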

Additional observations from a re-analysis of the deposited data

Results flagged for a closer look

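Of 30 groups of 6 libraries (10 regulators in 3 genotypes), 3 held a library that stood apart from the other 5 by Dixon's test, which chance does in about 1 in 20 groups. These were Chd5 in KO 1 at 708.3 CPM, where the next KO library was at 334 CPM; Pygo2 in KO 3 at 18.76 CPM, where the KO median was 14.3 CPM; and Kdm4a in the library labelled KI 4 at 18.54 CPM, where the other KI libraries began at 32.7 CPM. The difference of Kdm4a between KI and KO, 0.768 on the log2 scale, passed edgeR's test of the difference itself, with KO below and KI above WT.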

How the results depend on the processing

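Naa60 and Mbd2 were called lower by any amount in KO and in KI in all 26 alternatives, with log2 fold changes of -1.86 to -1.71 and -1.58 to -1.49 in KO and -1.99 to -1.80 and -1.44 to -1.32 in KI. The number of regulators higher in KO (2) became 1 with DESeq2 size factors, with the replicate block and at a threshold of 0.05, 0 with no filter on low counts or with 1 library of each close pair, and 1 to 3 when single libraries were left out. The number higher in KI (3) became 1 with 1 library of each close pair, and 2 to 4 when single libraries were left out. The number past 1 log2 unit in KI (2) became 1 with no filter or with 1 library of each close pair, and 1 to 2 without single libraries, 1 being without WT 3; the gene that lost this call was Mbd2 each time. The number that differed between KI and KO (1) became 0 when only KO and KI were fitted, and 0 to 1 without single libraries. Among the other chromatin genes, those higher in KO (33) became 21 with no filter and 16 with 1 library of each close pair, and with the latter those higher in KI (37) became 16 and those lower in KI (12) became 5. Without single libraries, 25 to 33 were higher and 8 to 11 lower in KO, and 28 to 43 higher and 9 to 14 lower in KI. With no filter, 2652 of 43982 tested genes were higher in KO, beside 3444 of 21058 with the filter. The cause of these changes in the counts was not tested.

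Over 780 fold changes of single regulators, 720 kept direction and call, 33 lost the call, 9 gained it and 18 changed sign, none of them called. Brdt changed sign in KI at 0.022 with 1 library of each close pair, and between KI and KO at 0.017 with DESeq2, 0.019 with its size factors, 0.037 with no filter, 0.043 with only the genotypes compared and 0.078 with 1 library of each close pair. Sirt1 did so between KI and KO at 0.006 with no filter and 0.012 with only the genotypes compared. Where leaving out a library changed the sign, the values without single libraries ran from -0.118 to 0.018 (Brdt, KO), -0.086 to 0.002 (Brdt, KI), and between KI and KO from -0.075 to 0.06 (Brdt), -0.486 to 0.002 (Chd5), -0.006 to 0.128 (Pygo2) and -0.096 to 0.015 (Sirt1). With 1 library of each close pair the calls of Chd5, Pygo2 and Kdm3a in KI and of Kdm4a in KO were lost. That setting left out WT 2, WT 4, WT 6, KO 5, KI 2, KI 4 and KI 5, and calls over all tested genes fell too. In KO they went from 3444 to 1749 higher and from 2826 to 1838 lower. In KI they went from 3377 to 1385 higher and from 3246 to 1635 lower.

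Not every pair of same-numbered libraries deviated together, and the numbers were not taken to pair them: deviations of same-numbered libraries correlated at -0.26 to 0.29 between KO and WT and -0.44 to 0.36 between KI and WT, over 0.1 in 2 of 6 pairs each, and at -0.1 to 0.48 between KI and KO, over 0.1 in 3 of 6. In these comparisons 0, 1 and 2 of 6 libraries correlated best with their own number. The replicate block left 1 regulator higher in KO, and under it Chd5 passed in KO. Low-level genes such as Pygo2 (173 to 398 counts per library) carry more counting error than Ep400 or Brdt. The fitted SE in KO was nonetheless 0.121 for Pygo2, 0.121 for Brdt and 0.108 for Ep400.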

Other observations

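The other chromatin genes that were higher included many on the X chromosome, a grouping made after the values were seen. Of 12 tested X-linked genes of the 10 lists, 8 were higher in KO, among them Phf8, Brwd3 and Ogt, and 0 lower, with a median log2 fold change of 0.48, beside 25 higher and 10 lower of 126 autosomal genes with a median of 0.13. In KI 6 of the 12 were higher and 0 lower, with a median of 0.40, beside 31 and 12 of the 126. Over all tested genes, 29.9% of 710 X-linked genes were higher in KO and 14.6% lower, beside 16% and 13.4% of 20152 autosomal genes; in KI these shares were 23.7% and 17.6% beside 15.9% and 15.3%. None of the 10 regulators is X-linked. All MSL and NSL genes called higher, in KO and in KI, were X-linked. The demethylases called higher included both X-linked and autosomal genes. The X-linked difference between lists was not tested.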
